A study of Schizosaccharomyces pombe with 12 samples.

Results

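Iron uptake in the fission yeast Schizosaccharomyces pombe was followed through 8 genes: 6 that bring iron into the cell, fip1 (SPAC1F7.07c), fio1 (SPAC1F7.08), frp1 (SPBC1683.09c), str1 (SPBC4F6.09), str3 (SPAC1F8.03c) and sib1 (SPAC23G3.02c), and 2 that regulate them, php4 (SPBC16E9.01c) and fep1 (SPAC23E2.01). They were chosen by name and systematic identifier for their known roles in iron acquisition, and they are 8 of the 6986 genes counted. For 7 of the 8 the listed identifier was in the table; fio1, listed with a final c, was found by its RefSeq symbol. Poly(A)-selected RNA was sequenced from log-phase cultures kept at 30 °C in the rich medium YES, which all strains shared. There were 4 genotypes with 3 replicate libraries each and 12 in all, from vegetative growth. The triple mutant combined asp1-H397A, ssu72-C13S and aps1∆. The ssu72-C13S strain had a changed Ssu72, a phosphatase that works with the factors of mRNA 3′ end formation and takes phosphate off the polymerase II tail. The asp1-H397A strain had a change in the pyrophosphatase part of Asp1, whose kinase part makes inositol pyrophosphates and whose pyrophosphatase part breaks them down, and Aps1 is another enzyme that breaks them down. The control strain was the wild type (WT). The title of the study sets these mutants in the context of phosphate homeostasis, RNA 3′ processing and transcription termination; iron was not varied.

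Fission yeast takes up iron by a reductive route and in bound form. In the reductive route, the ferric-chelate reductase Frp1 reduces ferric iron at the cell surface, and a complex of the multicopper ferroxidase Fio1 and the permease Fip1 carries it across the plasma membrane. For bound iron, Str1 and Str3 are transporters of the plasma membrane that take up iron bound in siderophores, and Str3 also takes up heme, while Sib1 is the synthetase that makes the siderophore ferrichrome. The GATA-type repressor Fep1 binds the promoters of these genes and of php4 when iron is plentiful. Php4 is made when iron is scarce and joins the CCAAT-binding complex of Php2, Php3 and Php5, which then represses genes of iron-using proteins.

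The genes fip1 and fio1 are divergent neighbours on chromosome I, with 303 bases between their annotated transcript starts in the RefSeq annotation of assembly ASM294v3, so they share 1 promoter region. The 300 bases upstream of the annotated fio1 transcript start, at I:4234772-4235071, are shown because these 2 genes changed most alike below. The stretch is read on the + strand from fip1 towards fio1. Capitals mark the GATA hexamers AGATAA and TGATAA, searched on both strands; the first marked run is the longer element ATCTGATAA, which contains TGATAA.

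fip1-fio1 promoter: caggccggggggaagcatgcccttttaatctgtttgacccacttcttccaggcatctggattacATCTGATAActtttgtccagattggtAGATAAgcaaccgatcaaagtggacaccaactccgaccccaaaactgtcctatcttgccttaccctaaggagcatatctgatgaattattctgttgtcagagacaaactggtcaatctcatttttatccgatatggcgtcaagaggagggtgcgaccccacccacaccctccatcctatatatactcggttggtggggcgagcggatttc

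The 9-base elements ATCAGATAA and ATCTGATAA, each of which holds a GATA hexamer, were searched on both strands in the 1000 bases before every annotated start codon. At least 1 of them was found for 7 of the 8 genes, all but fep1, against 3.85% of 5112 coding genes. In this count fip1 and fio1 share 1 element. In the 300 bases before the annotated transcript start, only fip1, fio1, frp1 and php4 of the 8 held one, against 1.33% of coding genes. The elements found before the start codons are printed with 10 bases on each side, in the strand that carries the motif, with the element in capitals. A match describes these letters and was not tested as a binding site.

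str1, + strand, II:2704640-2704668, 864 bases before the start codon: gctgccgaccATCAGATAAttcttatttt
str1, - strand, II:2705017-2705045, 487 bases before the start codon: atatctgatgATCTGATAAgtatccagat
str3, - strand, I:90892-90920, 642 bases before the start codon: gacgttggcaATCTGATAAtttaagacaa
frp1, - strand, II:162762-162790, 616 bases before the start codon: actttagctcATCAGATAAaaaatagact
frp1, - strand, II:162470-162498, 324 bases before the start codon: aatttggttgATCTGATAAcgcatcaaga
sib1, - strand, I:869975-870003, 457 bases before the start codon: atctctatcgATCTGATAAatataaggtg
php4, + strand, II:1916884-1916912, 156 bases before the start codon: gtttgttttaATCTGATAAagagatacga

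The element between fip1 and fio1, in the promoter above, lies 339 bases before the start codon of fip1 and 794 bases before that of fio1. Both str1 elements overlap its annotated transcript. The shorter hexamers are common and do not single out these genes: 87.1% of coding genes held at least 1 in the same 1000 bases. Coordinates are those of ASM294v3, whereas the submitters' processing notes name ASM294v2 for the counts, so genes were joined by identifier and not by position.

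Levels are given as counts-per-million (CPM) after TMM scaling by edgeR, which adjusts library totals for composition. Total counts ranged from 23115806 to 29124916 per library, and the floor for a gene without counts, taken as 3 counts, was 0.103 to 0.13 CPM, counting error only. Changes were tested by edgeR's quasi-likelihood method, and p-values were adjusted by Benjamini-Hochberg over all 6189 genes tested, at a threshold of 0.05; the labels call the samples replicate experiments without naming separate cultures, so p-values measure the spread between these samples, which may be technical. A lower or higher level cannot be told apart between a change in every cell and a change in the share of cells that express a gene. The gene deleted in the triple mutant, aps1, was at 37.8, 41.2 and 37.5 CPM in the triple mutant, against 116, 120 and 102 CPM in WT. The label gives no end points of the deletion, and counts remained. In ssu72-C13S, whose label names no aps1 deletion, aps1 averaged 77.9 CPM and was also below WT (log2 change -0.53, adjusted p = 2.25e-05). In asp1-H397A it averaged 106 CPM and was not called. The libraries asp1-H397A replicate 3 and triple mutant replicate 1 stood apart from their replicates. The SD of their log2 difference across genes was 0.371 and 0.322, against 0.161 to 0.257 in the other 10. This difference correlated across genes with the share of A in the transcript (r = 0.69 and 0.63). In the other 10 that correlation was -0.56 to 0.28, and its cause was not tested. Results of the 8 genes that change without these 2 libraries are marked. Since 44.4% or more of all genes passed the threshold in each mutant against WT, a call by itself says little, and sizes and library values carry the description. Opposite-strand non-coding RNAs overlap 6 of the 8 genes, all but fip1 and frp1. They are not in the count table, and the sources used here do not give whether counting used the strand, so their reads cannot be told apart from those of these 6 genes.

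The transcripts of the permease and ferroxidase were highest in the triple mutant, intermediate in ssu72-C13S, and lowest in asp1-H397A, where they were below WT. The permease transcript fip1 had 266, 381 and 310.2 CPM in the triple mutant, 113, 114 and 143 CPM in ssu72-C13S, 15.4, 16.2 and 14.6 CPM in asp1-H397A, and 31.4, 34.2 and 33.4 CPM in WT. No library of any genotype overlapped those of another. The ranges of fio1, frp1, str1, str3 and php4 below were also separate. The share of all genes with such ranges was not counted, so they only describe the levels. Relative to WT, fip1 was 9.66-fold higher in the triple mutant (log2 change 3.27 ± 0.13 SE, adjusted p = 3.99e-10) and 3.74-fold higher in ssu72-C13S (1.90 ± 0.12, 4.25e-08), and it fell by 1.10 on the log2 scale in asp1-H397A (adjusted p = 2.29e-05).

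The ferroxidase transcript fio1 had 75.3, 98.5 and 75.3 CPM in the triple mutant, 34.7, 36.2 and 42.7 CPM in ssu72-C13S, 3.12, 3.20 and 2.78 CPM in asp1-H397A, and 6.07, 6.02 and 7.18 CPM in WT. Its order of genotypes was that of fip1, again with no overlap between them. The changes relative to WT were 12.9-fold in the triple mutant (log2 change 3.69 ± 0.14 SE, adjusted p = 2.04e-10), 5.9-fold in ssu72-C13S (2.56 ± 0.13, 5.61e-09) and -1.08 ± 0.15 on the log2 scale in asp1-H397A (9.44e-05). Of all genes tested, fio1 had the 10th and fip1 the 12th highest log2 change of the triple mutant against WT. The triple mutant also exceeded ssu72-C13S for both, by 1.37 ± 0.12 for fip1 (adjusted p = 3.83e-07) and by 1.13 ± 0.12 for fio1 (2.84e-06).

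The 2 genes of the shared promoter thus moved in the same direction in every comparison, but their ratio was not fixed. Per kilobase of annotated exon, fip1 exceeded fio1 by a factor of 6.07 ± 0.469 in the triple mutant, 5.16 ± 0.158 in ssu72-C13S and 8.05 ± 0.252 in asp1-H397A, and it did so by 8.18 ± 0.820 in WT (SD, n = 3 each). No library of the triple mutant or ssu72-C13S had a ratio above 6.52, and none of asp1-H397A or WT had one below 7.37. An opposite-strand non-coding RNA overlaps fio1 by 615 bases, and none overlaps fip1. Whether reads of that RNA entered the ratio was not tested.

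**Figure D1:**
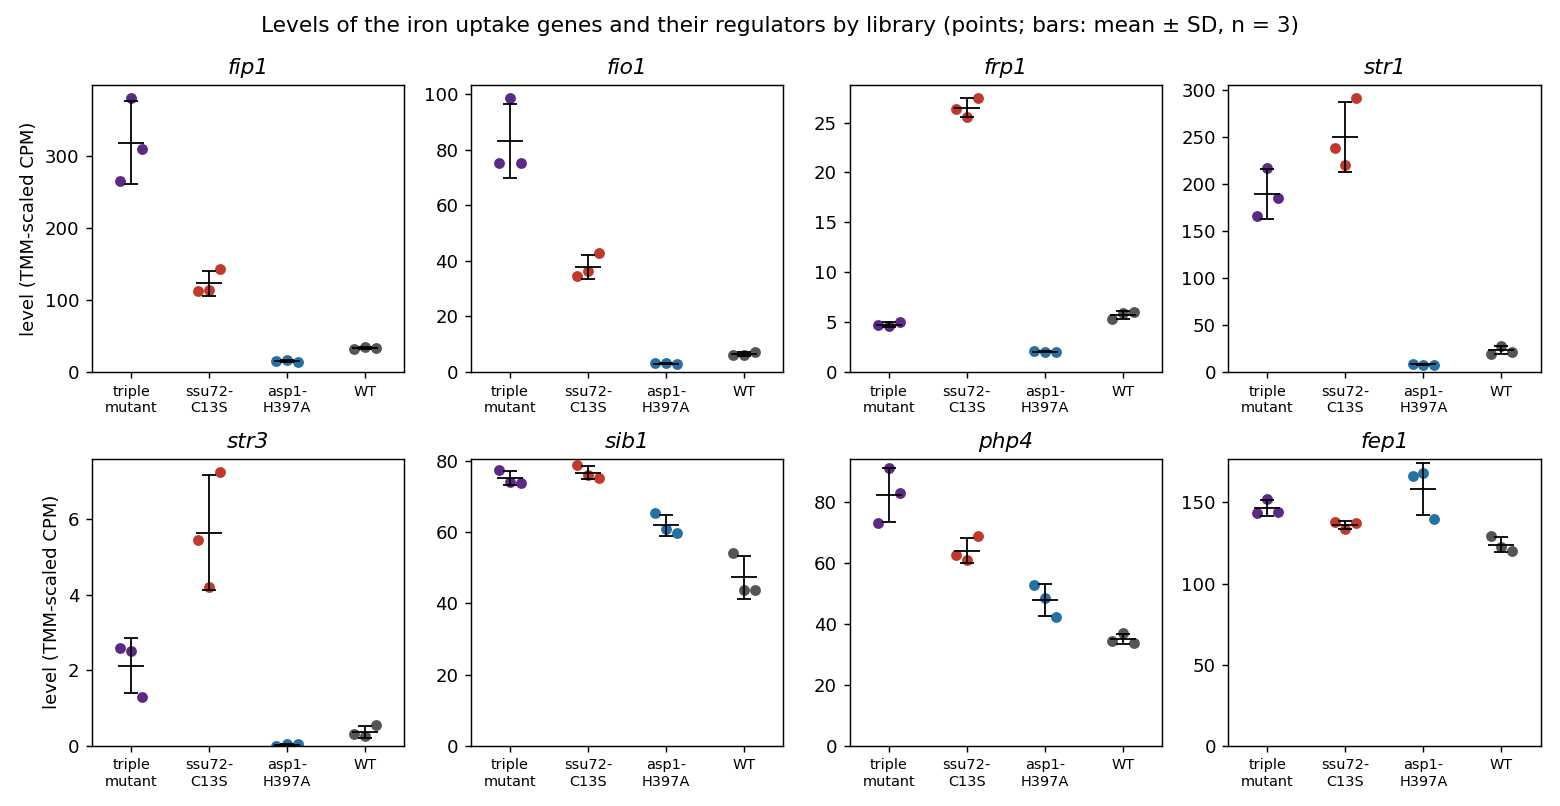
Each panel shows 1 gene, with its level in CPM (TMM-scaled, linear axis from 0, one scale per panel) for each library as a point and the mean ± SD of the 3 libraries as a bar, for the triple mutant, ssu72-C13S, asp1-H397A and WT. The panels of fip1 and fio1 peak in the triple mutant (means of 319 and 83.0 CPM), whereas those of frp1, str1 and str3 peak in ssu72-C13S (26.5, 249 and 5.63 CPM).

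The reductase transcript frp1 did not follow the permease and ferroxidase in the triple mutant. It had 4.69, 4.61 and 4.99 CPM in the triple mutant, 26.4, 25.6 and 27.5 CPM in ssu72-C13S, 2.08, 1.99 and 1.99 CPM in asp1-H397A, and 5.31, 5.91 and 6.05 CPM in WT. The ssu72-C13S libraries stood far above the rest, and the triple mutant libraries lay just below those of WT. Relative to WT, frp1 was 4.6-fold higher in ssu72-C13S (log2 change 2.20 ± 0.09 SE, adjusted p = 8.56e-10) and fell by 1.51 in asp1-H397A (3.15e-07). Its change in the triple mutant was small, -0.27 ± 0.10 with an adjusted p of 0.0358, and the call was lost under RLE scaling (adjusted p = 0.0605), with DESeq2 (0.115), without both libraries that stood apart (0.0618) and without triple mutant replicate 2 (0.15). The difference between the triple mutant and ssu72-C13S was -2.47 ± 0.10 (2.72e-10), opposite in sign to the differences of fip1 and fio1.

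Among the siderophore and heme transporters, str1 and str3 were high in both strains with the ssu72-C13S allele, and highest in ssu72-C13S itself. The ferrichrome transporter transcript str1 had 165, 217 and 184 CPM in the triple mutant, 238, 219.9 and 291 CPM in ssu72-C13S, 8.67, 7.79 and 7.70 CPM in asp1-H397A, and 19.6, 28.1 and 21.7 CPM in WT. The libraries of each mutant were clear of those of WT, and each triple mutant library was below each ssu72-C13S library. Relative to WT it was 8.17-fold higher in the triple mutant (log2 change 3.03 ± 0.14 SE, adjusted p = 2.15e-09), 10.8-fold higher in ssu72-C13S (3.43 ± 0.15, 9.29e-10), and it fell by 1.52 in asp1-H397A (7.46e-06). The difference between the triple mutant and ssu72-C13S, -0.40 ± 0.13, passed the threshold (0.0172) but not without ssu72-C13S replicate 3 (-0.28, adjusted p = 0.105) or without triple mutant replicate 1 (-0.31, 0.056).

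The transcript of str3 was scarce, so its counts are given: 61, 58 and 26 in the triple mutant, 159, 116 and 201 in ssu72-C13S, 0, 1 and 1 in asp1-H397A, and 10, 7 and 14 in WT. It passed the filter on low counts mainly through its ssu72-C13S and triple mutant libraries, of which all 6 were above the cutoff of 0.391 CPM, against 0 in asp1-H397A and 1 in WT. In CPM it averaged 2.12 ± 0.724 in the triple mutant, 5.63 ± 1.52 in ssu72-C13S and 0.365 ± 0.157 in WT (SD, n = 3 each). The fitted log2 change relative to WT was 2.57 ± 0.38 in the triple mutant and 3.96 ± 0.33 in ssu72-C13S (SE), given as a description because of the filter. In asp1-H397A the 2 counts in all, against 31 in WT, gave a depth-adjusted ratio of 0.077 with a 95% exact interval of 0.00892 to 0.302, counting error only; the test of the difference had an adjusted p of 0.0082.

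The ferrichrome synthetase transcript sib1 changed little. It had 77.4, 74.2 and 73.9 CPM in the triple mutant, 78.8, 76.1 and 75.2 CPM in ssu72-C13S, 65.3, 61.0 and 59.7 CPM in asp1-H397A, and 54.3, 43.8 and 43.9 CPM in WT. All mutant libraries were above all WT libraries, asp1-H397A included, where the permease, reductase and transporter transcripts were below WT. The log2 changes were 0.67 ± 0.08 in the triple mutant (adjusted p = 1.79e-05), 0.70 ± 0.08 in ssu72-C13S (1.15e-05) and 0.39 ± 0.08 in asp1-H397A (0.00201). The triple mutant and ssu72-C13S did not differ by the test (-0.03 ± 0.08, adjusted p = 0.779). With library totals alone as the scale, a choice made after seeing the data, the asp1-H397A change was 0.16 and missed the threshold (0.183).

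**Figure D2:**
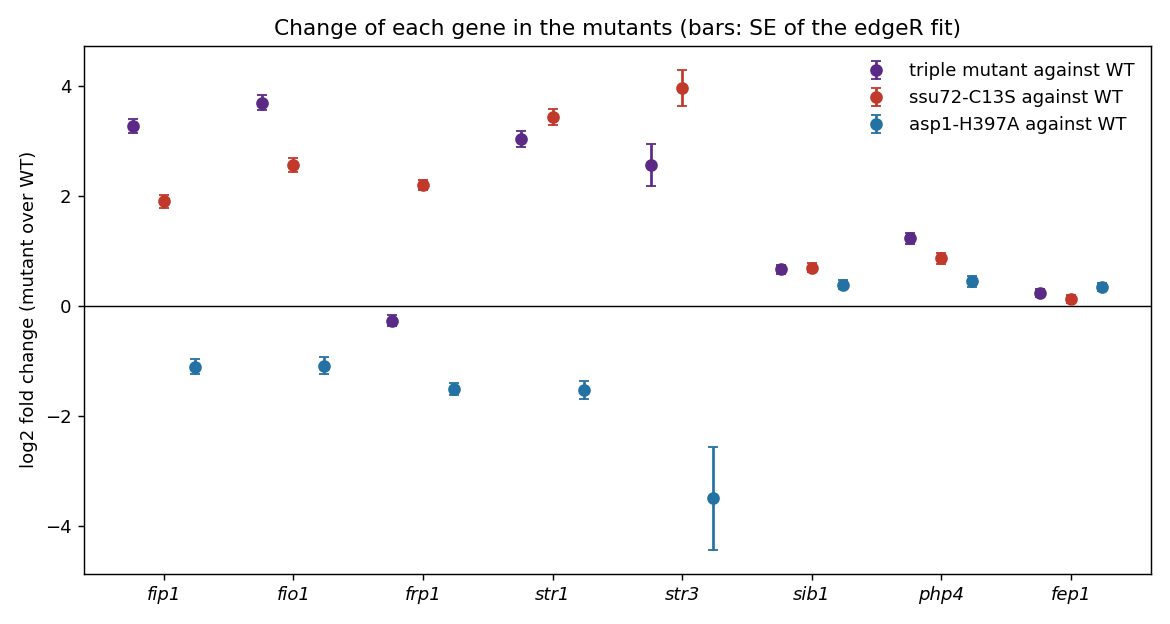
The log2 fold change over WT is shown for each of the 8 genes in the triple mutant, ssu72-C13S and asp1-H397A, as points with bars for the SE of the edgeR fit. In asp1-H397A the points of fip1, fio1, str1, str3 and frp1 lie below 0, with -1.10, -1.08, -1.52, -3.49 and -1.51, and those of sib1, php4 and fep1 above it, with 0.39, 0.45 and 0.35; the str3 value in that strain is a fitted one from 2 counts and depends on the prior count.

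Of the regulators, php4 was higher in all mutants. Its transcript had 73.3, 91.1 and 83.0 CPM in the triple mutant, 62.6, 60.9 and 68.8 CPM in ssu72-C13S, 52.8, 48.4 and 42.4 CPM in asp1-H397A, and 34.3, 37.1 and 33.9 CPM in WT. The 4 genotypes formed 4 ranges with no overlap, as for fip1, fio1, frp1, str1 and str3, with asp1-H397A lying between ssu72-C13S and WT. Relative to WT, php4 was 2.35-fold higher in the triple mutant (log2 change 1.23 ± 0.10 SE, adjusted p = 2.94e-07), 1.83-fold in ssu72-C13S (0.87 ± 0.10, 7.29e-06) and 1.36-fold in asp1-H397A (0.45 ± 0.10, 0.0025). The triple mutant exceeded ssu72-C13S by 0.36 ± 0.10 (adjusted p = 0.00581), which missed the threshold without triple mutant replicate 2 (0.27, adjusted p = 0.0641).

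The repressor transcript fep1 moved least. It had 144, 152 and 144 CPM in the triple mutant, 138, 133 and 137 CPM in ssu72-C13S, 167, 168 and 140.0 CPM in asp1-H397A, and 129, 123 and 120.2 CPM in WT. Each mutant library was above each WT library, by little. The log2 change was 0.24 ± 0.07 in the triple mutant (adjusted p = 0.00974), 0.13 ± 0.07 in ssu72-C13S (0.112, not past the threshold) and 0.35 ± 0.07 in asp1-H397A (0.00106). The triple mutant value missed the threshold without triple mutant replicate 2 (0.23, adjusted p = 0.0698). Without both libraries that stood apart the ssu72-C13S value was still 0.13 and passed the threshold (0.0038). These sizes are near those by which scaling moves all genes: with library totals alone, which shift the median of all genes by -0.31 in the triple mutant, the fep1 value there was -0.07 (adjusted p = 0.253).

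Levels can be set against each other only per kilobase of exon. In the triple mutant the order was fip1 (180 CPM per kb), str1 (63.2), php4 (54.3), fep1 (41.8), fio1 (29.6), sib1 (5.01), frp1 (2.34) and str3 (1.02). In ssu72-C13S it was str1 (83.4 CPM per kb), fip1 (69.8), php4 (42.2), fep1 (38.9), fio1 (13.5), frp1 (13.01), sib1 (5.11) and str3 (2.70). In asp1-H397A fep1 (45.2 CPM per kb) and php4 (31.5) were followed at a distance by fip1 (8.70). In WT the order was fep1 (35.4 CPM per kb), php4 (23.1), fip1 (18.6), str1 (7.73), sib1 (3.15), frp1 (2.83), fio1 (2.29) and str3 (0.175). Neighbours whose ranges overlapped were str1 and php4 in the triple mutant, str1 with fip1 and fio1 with frp1 in ssu72-C13S, fio1 with frp1 in asp1-H397A, and sib1 with frp1 in WT. The permease transcript thus stood above both regulators in the triple mutant, and below both in WT.

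By comparison, 7 of the 8 genes were called higher and 1, frp1, lower in the triple mutant against WT, where 51.9% of all genes tested were called, 26.2% higher and 25.7% lower. The frp1 call was lost under many settings, as given above. Every triple mutant library lay above every WT library for the same 7 (29.3% of all genes) and below for frp1 (29.7%). In ssu72-C13S against WT 7 were higher and 0 lower, with 54.7% of all genes called, 25.5% higher and 29.1% lower, and the libraries were above those of WT for all 8 (34.4% of all genes) and below for 0 (39.7%). In asp1-H397A against WT 3 were higher and 5 lower, with 44.4% of all genes called, 25.8% higher and 18.6% lower, and the libraries did not overlap for the same 3 above (28.6% of all genes) and the same 5 below (20.7%). The median log2 change of the 8 was 1.90 in the triple mutant (all genes tested -0.01), 2.05 in ssu72-C13S (all genes -0.04) and -1.09 in asp1-H397A (all genes 0.00). The 3 comparisons share the WT libraries. The gene str3 is in these counts and medians. It passed the filter mainly through the triple mutant and ssu72-C13S, so its higher calls in these strains give no support.

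Between the mutants, 3 of the genes were higher and 3 lower in the triple mutant against ssu72-C13S, where 56.3% of all genes were called, 28.8% higher and 27.5% lower. The higher ones were fip1, fio1 and php4, and the lower ones were str1, str3 and frp1. Without both libraries that stood apart fep1 was also called higher (0.12, adjusted p = 0.0166), which made 4 higher and 3 lower. In the triple mutant against asp1-H397A 7 were higher and 0 lower, with 36.8% of all genes called, 15.7% higher and 21.1% lower, and with fip1 at 4.37, fio1 at 4.77, str1 at 4.55 and frp1 at 1.24 on the log2 scale. Without both libraries that stood apart fep1 was called lower there (-0.18, adjusted p = 0.00336), which made 7 higher and 1 lower. The sib1 difference, 0.28, missed the threshold with only these genotypes compared (adjusted p = 0.0535). In asp1-H397A against ssu72-C13S 1 was higher, fep1, and 7 were lower, with 54% of all genes called, 29.7% higher and 24.3% lower. The fep1 call (0.22, adjusted p = 0.0158) was lost with RLE scaling (0.072), upper-quartile scaling (0.491) and library totals alone (0.814). It was also lost with DESeq2 (0.0737) and with only these genotypes compared (0.116). Leaving out asp1-H397A replicate 1 (0.215) or 2 (0.0725), ssu72-C13S replicate 2 (0.0575) or triple mutant replicate 2 (0.0701) lost it too. The median log2 change of the 8 was 0.04, 2.80 and -3.32 in these 3 comparisons, against 0.01, -0.01 and 0.03 over all genes. The gene str3 is in these counts and medians, and because of the filter its calls between asp1-H397A and the other mutants give no support.

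Whether the triple mutant equals the sum of the single mutants was tested as the log2 change of the triple mutant minus those of ssu72-C13S and asp1-H397A. The triple mutant also lacks aps1, and no strain lacking aps1 alone was among the samples, so any effect of that deletion is part of this contrast. The permease and ferroxidase transcripts were higher than the sum. For fip1 the triple mutant was at 3.27 against a sum of 0.81 (departure 2.47 ± 0.18 SE, adjusted p = 3.49e-07), and for fio1 it was at 3.69 against 1.48 (2.21 ± 0.19, 1.91e-06). The str1 transcript was also higher, at 3.03 against 1.91 (1.12 ± 0.21, 0.000706). The reductase transcript frp1 went the other way, at -0.27 against 0.69 (-0.97 ± 0.15, 0.000186), and so did sib1, at 0.67 against 1.09 (-0.42 ± 0.12, 0.0114). For php4 the departure was -0.08 ± 0.14 (adjusted p = 0.659), for fep1 -0.25 ± 0.10 (0.056; -0.31 and 0.000193 without both libraries that stood apart) and for str3 2.10 ± 1.05 (0.128), none past the threshold, and the str3 value rests on the 2 counts in asp1-H397A. So 3 of the 8 departed upwards and 2 downwards, with 41.9% of all genes called in this contrast, 20.1% upwards and 21.8% downwards.

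**Figure D3:**
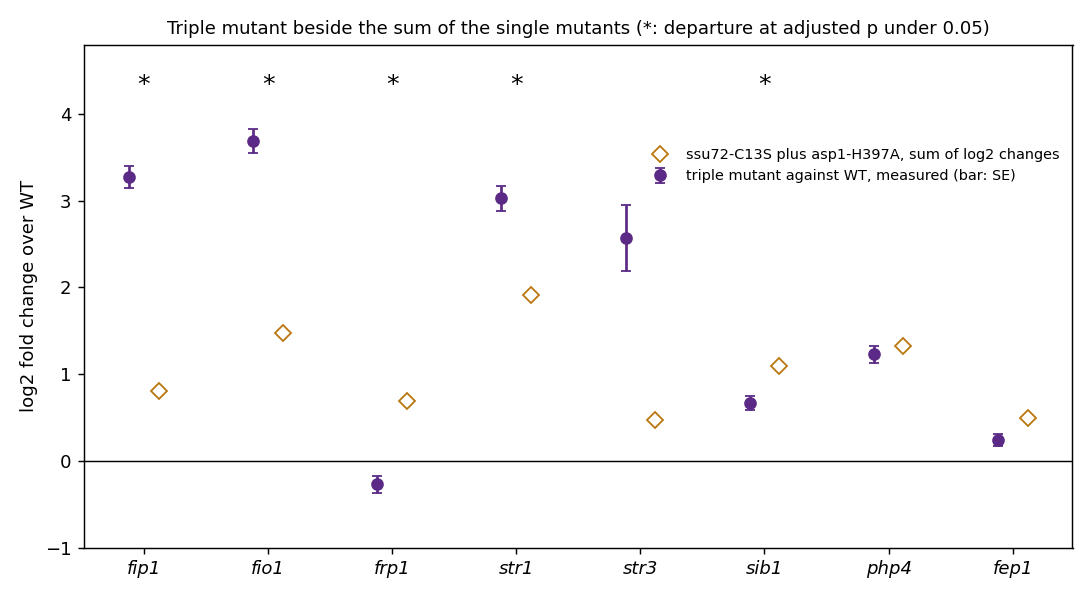
For each of the 8 genes the filled point is the log2 change of the triple mutant over WT and the open diamond the sum of the log2 changes of ssu72-C13S and asp1-H397A; asterisks mark a departure at an adjusted p under 0.05. The filled point lies above the diamond for fip1 (3.27 against 0.81), fio1 (3.69 against 1.48) and str1 (3.03 against 1.91), and below it for frp1 (-0.27 against 0.69) and sib1 (0.67 against 1.09).

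Another 5 genes of iron uptake were set beside these 8: str2, a siderophore transporter gene, sib2, which encodes the ornithine monooxygenase of siderophore synthesis, frp2, a predicted ferric-chelate reductase, shu1, a cell-surface protein of heme uptake, and abc3, a vacuolar ABC transporter. Of these 5, all were called higher in ssu72-C13S, where 25.5% of all genes were, 3 were called higher in the triple mutant (26.2% of all genes) and 3 in asp1-H397A (25.8%), and none was called lower. These counts include shu1 in ssu72-C13S and in the triple mutant, although it passed the filter on low counts mainly through libraries of these strains, with 2 triple mutant, 3 ssu72-C13S, 0 asp1-H397A and 1 WT library at the cutoff, so its calls there give no support. Their median log2 change was 0.33 in the triple mutant, 0.92 in ssu72-C13S and 0.31 in asp1-H397A. The frp2 transcript was highest in ssu72-C13S, as frp1 was, with 3.21 ± 0.205 CPM in the triple mutant, 8.48 ± 0.787 CPM in ssu72-C13S, 3.66 ± 0.217 CPM in asp1-H397A and 3.24 ± 0.490 CPM in WT (SD, n = 3 each). It rose in ssu72-C13S (log2 change 1.39 ± 0.13 SE, adjusted p = 9.69e-07) and had a change of -0.01 in the triple mutant (0.977).

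The neighbour of str3 on chromosome I, shu1, had 27, 24 and 4 counts in the triple mutant, 35, 35 and 32 in ssu72-C13S, 2, 4 and 4 in asp1-H397A, and 13, 9 and 9 in WT. One triple mutant library, replicate 3, lay below WT while the other 2 were above it. The fitted log2 change relative to WT was 1.18 ± 0.44 in the triple mutant, 1.75 ± 0.39 in ssu72-C13S and -1.35 ± 0.63 in asp1-H397A (SE), given as a description because of the filter, and the triple mutant value was 0.84 without replicate 1. The departure from the sum of the single mutants was negative and past the threshold for str2 (-0.51), sib2 (-1.01), frp2 (-1.58) and abc3 (-1.13). This was the direction of frp1 and sib1 and not of fip1, fio1 and str1. Of all genes tested, 21.8% departed downwards past the threshold. For shu1 the departure was positive, at 0.78, and not past the threshold (adjusted p = 0.415). The 9-base elements were found in the 1000 bases before the start codon for 4 of these 5 genes, all but sib2. In the 300 bases before the transcript start they were found for str2, shu1 and abc3 only.

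The products of 16 further genes use or store iron, assemble the clusters that hold it, or, as for sdh1, are subunits of complexes that use it. The reference names the gene taken as sdh4, SPBP23A10.16, tim18. Such genes are known targets of Php4 in several cases. In ssu72-C13S 8 of the 16 were called lower and 0 higher, where 29.1% of all genes were called lower. The largest declines were of rip1, the iron-sulfur protein of respiratory complex III, which had 154 ± 0.208 CPM in ssu72-C13S and 473 ± 14.7 CPM in WT (SD, n = 3 each; log2 change -1.62 ± 0.09 SE, adjusted p = 1.29e-08), and of lys2, the homoaconitase of lysine synthesis (-1.48 ± 0.08, 5.05e-09). They were followed by cyc1, cytochrome c, with 353 ± 9.82 CPM in ssu72-C13S and 909 ± 37.0 CPM in WT (-1.36 ± 0.09, 6.37e-08). The aconitase gene aco1 and the biotin synthase gene bio2 fell by 0.72 and 0.69 (adjusted p = 1.42e-05 and 1.51e-06).

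In the triple mutant 6 of the 16 were called lower and 3 higher, where 25.7% and 26.2% of all genes were. The catalase transcript ctt1, whose product holds heme, fell most, with 94.6 ± 15.4 CPM in the triple mutant against 318 ± 21.9 CPM in WT (-1.75 ± 0.11, adjusted p = 3.82e-08); lys2 was at -0.39 (0.000625). The rip1 and cyc1 transcripts had log2 values there of 0.23 (adjusted p = 0.0436, called higher) and 0.17 (0.138). With library totals alone the rip1 value turned to -0.08 against the median shift of -0.31. In asp1-H397A 2 were called lower, isa1 and grx5, and 4 higher, sdh1, cyc1, rip1 and glt1, where 18.6% and 25.8% of all genes were. The median of the 16 was -0.06 in the triple mutant, -0.18 in ssu72-C13S and 0.12 in asp1-H397A.

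**Figure D4:**
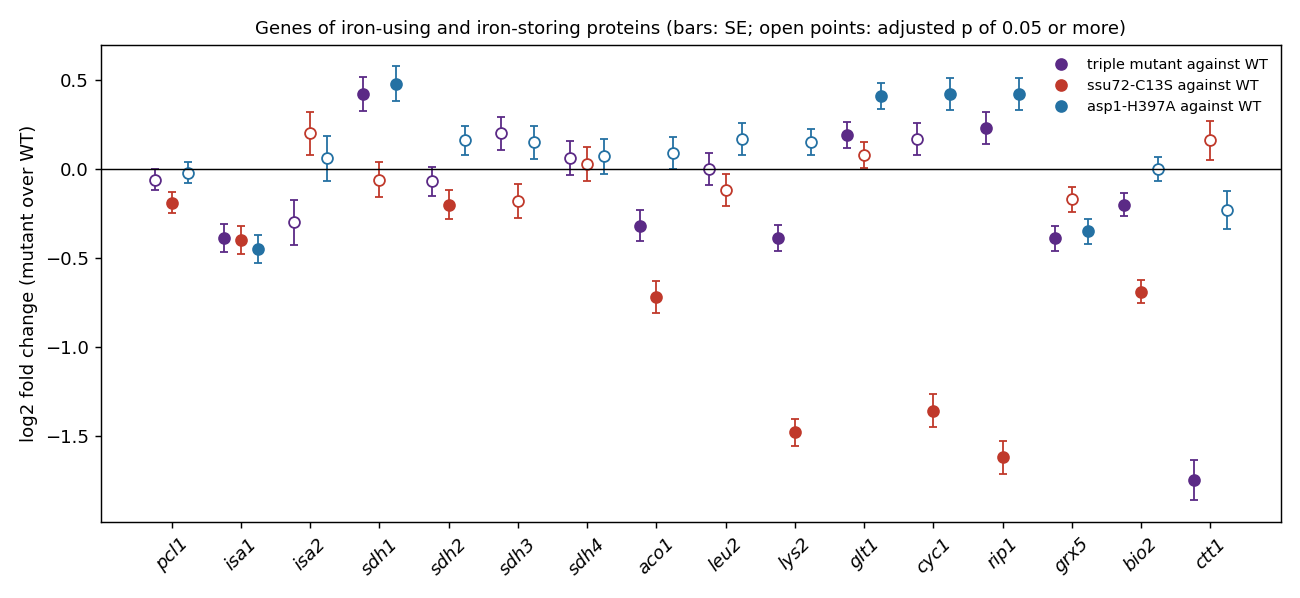
The log2 fold change over WT of the 16 genes of iron-using and iron-storing proteins is shown for the triple mutant, ssu72-C13S and asp1-H397A, with bars for the SE of the edgeR fit and open points where the adjusted p was 0.05 or more. The ssu72-C13S points of rip1, lys2 and cyc1 stand lowest in that strain, at -1.62, -1.48 and -1.36, and the triple mutant point of ctt1 lies at -1.75.

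Among 7 genes whose products work with Php4 or Fep1, php3, a subunit of the CCAAT-binding complex, was called higher in all 3 mutants, with log2 changes of 0.59 in the triple mutant, 0.53 in ssu72-C13S and 0.26 in asp1-H397A (adjusted p = 8.03e-05, 0.000214 and 0.0282). The other subunits php2 and php5 were not called in ssu72-C13S, where their values were -0.08 and -0.01. In asp1-H397A both were called higher, at 0.52 and 0.35 (adjusted p = 0.00026 and 0.00611), above the php3 value there. In the triple mutant php2 was called higher (0.45, adjusted p = 0.000567) and php5 was not (0.15, 0.19). The monothiol glutaredoxin gene grx4, whose product binds Fep1 and Php4, was called lower in all 3 mutants, with 175 ± 19.9 CPM in the triple mutant, 195 ± 10.5 CPM in ssu72-C13S, 137 ± 23.6 CPM in asp1-H397A and 249.9 ± 11.3 CPM in WT (SD, n = 3 each; adjusted p = 0.00118, 0.0111 and 2.92e-05). So was fra2, at -0.56, -0.62 and -0.43. Of the corepressor genes, tup11 was called higher in the triple mutant (0.23) and asp1-H397A (0.46), the first turning to -0.08 with library totals alone, and tup12 was called higher in asp1-H397A (0.30) and lower in ssu72-C13S (-0.44). In all, 3 of the 7 were called higher and 2 lower in the triple mutant, 1 and 3 in ssu72-C13S, and 5 and 2 in asp1-H397A. Over all genes tested the shares called higher and lower were 26.2% and 25.7% in the triple mutant, 25.5% and 29.1% in ssu72-C13S, and 25.8% and 18.6% in asp1-H397A.

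Likeness was described by the correlation of log2 CPM across the 12 libraries, over 5208 genes with a mean of at least 5 CPM; libraries of 1 genotype are not independent, so no p is given. The genes most like fip1 were fio1 (r = 0.9951), the non-coding SPNCRNA.322 (0.9844) and mug150 (0.9716). The gene most like str1 was the non-coding SPNCRNA.605 (0.9938), which the reference places 659 bases from str3 on the opposite strand. It had 34.1 ± 1.87 CPM in the triple mutant, 44.4 ± 3.23 CPM in ssu72-C13S, 6.61 ± 1.03 CPM in asp1-H397A and 11.3 ± 0.841 CPM in WT (SD, n = 3 each). The genes most like frp1 were SPNCRNA.1529 (0.9915), SPNCRNA.1195 and ecl1 (0.9810), and ecl1 had 36.6 ± 2.50 CPM in the triple mutant, 125 ± 3.16 CPM in ssu72-C13S, 25.7 ± 2.71 CPM in asp1-H397A and 54.7 ± 2.39 CPM in WT. For php4 they were hos2 (0.9906), knh3 and gcv3, for fep1 imt3 (0.9771), ghs2 and met10, for sib1 tlg1 (0.9593), SPNCRNA.1553 and SPBP19A11.07c, and for str3 nam3, sua7 and SPNCRNA.990.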

How the data were processed

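RNA was measured in 12 libraries of 4 genotypes, grouped by their titles. The authors deposited raw counts per gene, 1 column per library; the submitters' processing notes name HISAT2 2.1.0, SAMtools, HTSeq 0.10.0, DESeq2 and build ASM294v2, without roles. The table had 6987 rows; 1 repeated identifier with 0 counts was dropped, and 320 of the 6986 genes had 0 counts throughout. Names, exon lengths and sequences came from the RefSeq annotation of ASM294v3 (6833 identifiers matched by locus tag, 13 by synonym, 140 not matched).

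Genes were filtered with edgeR 4.0.16 (filterByExpr, minimum count 10), leaving 6189, and scaled by TMM (factors 0.847 to 1.13). One negative binomial model of all libraries with a coefficient per genotype was tested by the quasi-likelihood method in R 4.3.3, with Benjamini-Hochberg adjustment over all genes. The SE is the size of the log2 change divided by the square root of F. For levels, CPM carry no prior count; for likeness, log2 CPM had a prior count of 2. The 8 genes, the other lists and the likeness rule (3 most correlated genes per member) were chosen with earlier results of these data known, and the lists were described by counts and medians. Functions were tested on simulated data. The settings tried were scaling by RLE or the upper quartile, DESeq2 1.42.0, a filter at 1 count or at a mean of 50, only the genotypes compared, a replicate block, leaving out each library, and leaving out asp1-H397A replicate 3 with triple mutant replicate 1.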

Additional observations from a re-analysis of the deposited data

Results flagged for a closer look

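For 5 of the 8 genes the step from asp1-H397A to the triple mutant, which adds ssu72-C13S together with aps1∆, differed from the step from WT to ssu72-C13S, by the interaction contrast of edgeR's quasi-likelihood test, adjusted over all genes. The departure on the log2 scale was 2.47 for fip1, 2.21 for fio1 and 1.12 for str1, and it was -0.97 for frp1 and -0.42 for sib1. Of all genes tested, 41.9% passed the threshold in this contrast. The deletion of aps1 cannot be told apart from the combination of the 2 alleles here.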

How the results depend on the processing

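For the 8 genes, 56 log2 changes were recomputed under the alternatives, giving 1167 values: 1123 kept direction and side of the threshold, 31 lost and 11 gained the call, and 2 reversed; 43 changes kept both throughout. With library totals alone, added after seeing the data, the values that reversed were fep1 in the triple mutant against WT (-0.07) and against ssu72-C13S (-0.18), glt1 (-0.12), rip1 (-0.08) and tup11 (-0.08) in the triple mutant against WT, tup11 in the triple mutant against ssu72-C13S (-0.05), and pcl1 in asp1-H397A against ssu72-C13S (-0.03). That scale moved the median of all genes by -0.31 in the triple mutant and -0.22 in asp1-H397A against WT, and upper-quartile scaling moved it by -0.14 in asp1-H397A. The share of higher among called genes, 50.4% in the triple mutant and 58.1% in asp1-H397A against WT, became 40.4% and 32.2% with upper-quartile scaling and 16.9% and 23.3% with library totals. The count of genes called in asp1-H397A against WT was 4537 without asp1-H397A replicate 3 and triple mutant replicate 1, against 2747, and in the triple mutant against asp1-H397A it was 1163 with only these genotypes compared, against 2277. Leaving out 1 library gave 2010 to 3999 and 1708 to 3074 genes for these 2 counts. It left 6 to 8 of the 8 genes called in the triple mutant against WT, 7 to 8 in ssu72-C13S and 8 in asp1-H397A. The replicate numbers were not taken as pairs. Same-numbered libraries had correlations of -0.43 to 0.32, and 4 of 6 libraries at most correlated best with their own number. With 3 libraries per genotype, these values cannot exclude a pairing. With the replicate number as a block, 7 of the 8 genes were called in the triple mutant against WT, frp1 missing the threshold (0.0503). Depth limits str3 and shu1.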
